A study of Mus musculus with 30 samples.

Results

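The type I interferon-stimulated genes are the genes that a cell switches on when interferon alpha or beta binds its surface receptor. Their levels were followed in bone marrow-derived dendritic cells (BMDCs), where 39 such genes, of 43629 rows in the count table, were chosen by their known place in this pathway. They were selected on a list drawn up with earlier results of the same libraries in view, namely differences between genotypes and between sets, so the tests on them are given as a description of these cultures. All 39 had a row, found by Ensembl gene ID.

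The RNA came from BMDCs grown for 6 days with GM-CSF from bone marrow of mice 6 to 12 weeks old, from 5 wild-type (WT) and 5 cultures labelled Cacnb3-KO, written Cacnb3-/- below, which lack the calcium channel subunit CACNB3. The study's methods list WT mice as C57BL/6J and Cacnb3-/- mice as C57BL/6N, so substrain and the loss of CACNB3 cannot be told apart between the genotypes. ATP is a danger signal released by damaged cells, and the labels describe a pulse of 500 µM for 30 min followed by harvest at once or after 24 h. Each culture gave 3 poly(A) libraries, whose names end in ctrl, 0p5h and 24h, so that there were 30 libraries in 6 groups of 5. In WT the order of cultures is p974s846, p974s850, p974s855, then p974s856 and p974s864, in Cacnb3-/- it is p974s843, p974s851, p974s852, then p974s853 and p974s865, and values are given in these orders throughout. The labels disagree on the first sets: libraries with names ending in ctrl have the treatment field 30min_ATP, and those ending in 0p5h have vehicle. The sets are called by the ending of the name here, which of them was unstimulated cannot be told from the labels, and it does not touch a comparison of WT with Cacnb3-/- inside one set. Whether each name stands for 1 animal is not in the labels, so p-values measure the spread between these cultures, and GM-CSF cultures of bone marrow are mixtures in which fewer cells of a type and less RNA per cell cannot be told apart.

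Type I interferon binds the receptor IFNAR1/IFNAR2, whose kinases JAK1 and TYK2 phosphorylate STAT2 among other proteins. STAT2 and IRF9 are subunits of the complex ISGF3, which binds a short DNA element in the promoters of interferon-stimulated genes, the interferon-stimulated response element. Among the products are IRF7, which amplifies interferon production, RNA and DNA sensors, and proteins that block steps of viral replication. Dendritic cells keep a low tonic expression of these genes without infection and raise them on sensing microbes or interferon.

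The response element was looked for in the promoters of the members, since it is the sequence through which these genes are known to be read together. RefSeq promoters (GRCm38.p6, 250 bases before to 50 after each start, several starts for some genes) matched 29 of the 39 symbols. Dhx58, Ifi204, Mx1, Mx2, Oas2, Parp14, Parp9, Rtp4, Tor3a and Zbp1 had no entry. The letters GAAANNGAAA, searched on both strands with overlaps allowed, stood in the windows of 13 of 29 genes (44.8%), against 1079 of 27025 genes in the whole table (3.99%). The letters of the gamma-activated sequence, TTCNNNGAA, stood in 7 of 29 (24.1%) against 9.55% of all genes. A match is a run of letters and not a measured binding site. Of the genes whose values are given in every library below, Stat2, Ifit1, Rsad2, Oas1a and Bst2 held the element before the start, Ifih1 and Ifitm3 held it only after the start, and the windows of Irf7, Irf9, Oasl1 and Xaf1 did not hold these letters. The 250 bases before the start are shown for the first 5, 5′ to 3′ on the strand of the gene, with GAAANNGAAA on either strand in capitals. They lie at chr10:128270248-128270497 (plus strand), chr19:34640639-34640888 (plus), chr12:26456453-26456702 (minus), chr5:120907526-120907775 (minus) and chr8:71537473-71537722 (minus).
Stat2: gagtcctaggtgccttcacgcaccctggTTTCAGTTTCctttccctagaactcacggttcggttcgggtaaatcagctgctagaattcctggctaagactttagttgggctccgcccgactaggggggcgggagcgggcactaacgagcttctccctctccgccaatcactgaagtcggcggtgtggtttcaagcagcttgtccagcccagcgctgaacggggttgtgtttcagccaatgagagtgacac
Ifit1: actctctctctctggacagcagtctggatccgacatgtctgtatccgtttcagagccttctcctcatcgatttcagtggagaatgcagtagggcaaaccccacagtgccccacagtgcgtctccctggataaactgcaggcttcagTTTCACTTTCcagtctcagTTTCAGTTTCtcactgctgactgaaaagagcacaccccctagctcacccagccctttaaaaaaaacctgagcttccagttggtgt
Rsad2: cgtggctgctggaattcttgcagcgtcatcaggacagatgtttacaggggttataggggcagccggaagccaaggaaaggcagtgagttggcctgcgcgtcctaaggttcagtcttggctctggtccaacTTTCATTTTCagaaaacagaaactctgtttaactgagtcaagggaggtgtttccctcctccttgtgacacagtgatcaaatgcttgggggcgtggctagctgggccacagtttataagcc
Oas1a: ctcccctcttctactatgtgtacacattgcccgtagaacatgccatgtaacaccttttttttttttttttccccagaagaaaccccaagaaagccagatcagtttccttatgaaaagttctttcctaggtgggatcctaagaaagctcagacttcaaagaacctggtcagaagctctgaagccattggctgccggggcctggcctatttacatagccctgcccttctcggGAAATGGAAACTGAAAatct
Bst2: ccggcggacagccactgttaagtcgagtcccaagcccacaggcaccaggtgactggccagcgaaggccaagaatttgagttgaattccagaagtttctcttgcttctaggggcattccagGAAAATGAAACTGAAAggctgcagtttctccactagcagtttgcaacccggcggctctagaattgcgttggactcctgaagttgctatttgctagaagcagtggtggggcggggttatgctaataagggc
Ifit1 carried 2 separate copies, Oas1a and Bst2 2 overlapping copies each, and Stat2 and Rsad2 1 copy. Stat2, Ifit1, Rsad2 and Oas1a followed the mean of the other members over the libraries, as described below, whereas Bst2 did not.

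The libraries held 8237393 to 32164225 counted reads (median 19556920), and gene levels are given as CPM, the read count scaled to library size (counts per megaread, TMM). Dendritic cell markers were high in every library (H2-Aa, an MHC class II chain, at 4520 to 10400 CPM), and the summed CPM of markers of mature migratory DCs (Ccr7, Fscn1, Ccl22, Cd83, Cacnb3) was 12900 to 26600 in WT and 9330 to 18400 in Cacnb3-/- libraries. Of the plasmacytoid DC markers, Siglech, Ccr9, Ly6d and Klk1 did not exceed 1.06 CPM in any library. Tcf4, also on that list, was at 28.9 to 53.4 CPM in WT and 31.5 to 92.6 in Cacnb3-/- libraries. The transcript of Cacnb3 was still counted in Cacnb3-/- libraries, at 547 to 1330 CPM against 1050 to 2170 in WT. The deleted part of the gene is not given in the sources used here, so this count does not check the labels. The share of mitochondrially encoded reads was 0.706% to 5.61% in WT and 2.16% to 16.5% in Cacnb3-/- libraries.

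In the libraries named ctrl, the members lay lower in Cacnb3-/- than in 4 of 5 WT cultures. Their mean log2 CPM was 5.71, 4.97, 6.09, 5.56 and 3.80 in WT against 3.98, 4.31, 3.82, 3.91 and 3.95 in Cacnb3-/- cultures. WT culture p974s864 was the exception: it had the lowest mean of all 10 cultures, while the other WT cultures stood above every Cacnb3-/- culture. The group means were 5.23 ± 0.89 and 3.99 ± 0.19 (SD, n = 5 each), a difference of -1.23. The spread was unequal, 4.88-fold between the highest and lowest WT culture and 1.40-fold among Cacnb3-/- cultures.

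In the set 0p5h fewer WT cultures stood apart. The mean was 5.67, 4.2, 6.10, 5.48 and 3.91 in WT against 4.49, 4.34, 3.45, 3.60 and 3.95 in Cacnb3-/- cultures, a difference of -1.11. WT cultures p974s846, p974s855 and p974s856 were above every Cacnb3-/- culture, and WT cultures p974s850 and p974s864 lay among them. At 24h the Cacnb3-/- cultures stood higher and the difference was -0.37. The mean was then 6.42, 4.87, 6.03, 5.78 and 3.92 in WT against 5.62, 5.28, 4.64, 4.95 and 4.70 in Cacnb3-/- cultures. WT culture p974s864 was below all 5 Cacnb3-/- cultures at 24h, and the groups overlapped.

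**Figure D1:**
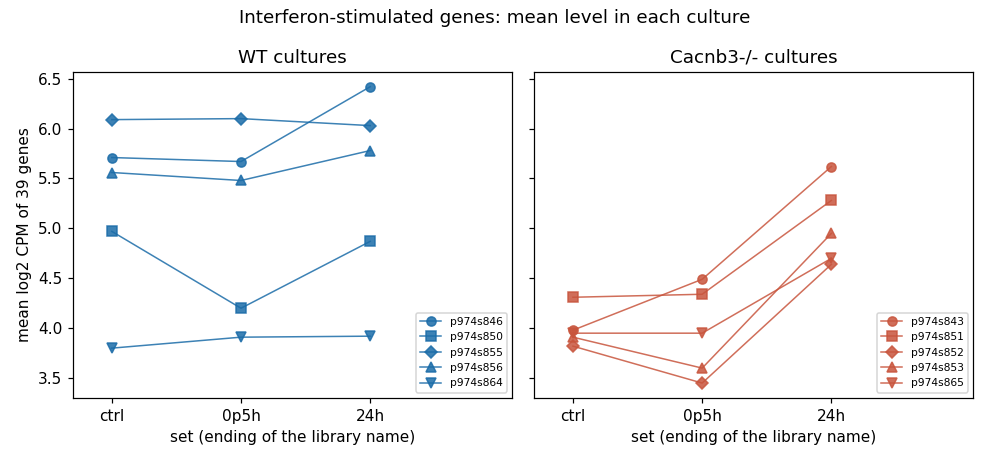
Mean log2 CPM of the 39 interferon-stimulated genes (vertical axis) in each set (horizontal axis), with 1 line for each culture, WT on the left and Cacnb3-/- on the right. The WT cultures are spread from 3.80 to 6.09 in ctrl and keep similar places, while all 5 Cacnb3-/- lines run upward from 0p5h to 24h.

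Level and spread can be read gene by gene. Per length of transcript, Bst2 was the highest member (median 692 RPKM, reads per kilobase of transcript, scaled as CPM, over 30 libraries), followed by Mx1 (151), Trim25 (69.1) and Ifitm3 (66.7), and Ifi44 was the lowest (0.315). Correlated over the 30 libraries with the mean of the other members, 22 members had r above 0.9 and 31 above 0.8, with a median of 0.92. The libraries share cultures, so these correlations are a description only. Bst2 (r = 0.32), Trim25 (0.02) and Mx1 (-0.21), the 3 highest members per length, and Samd9l (0.53) did not follow the others. Oasl2 and Xaf1 (0.99 each) and Zbp1 (0.98) followed them most closely.

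**Figure D2:**
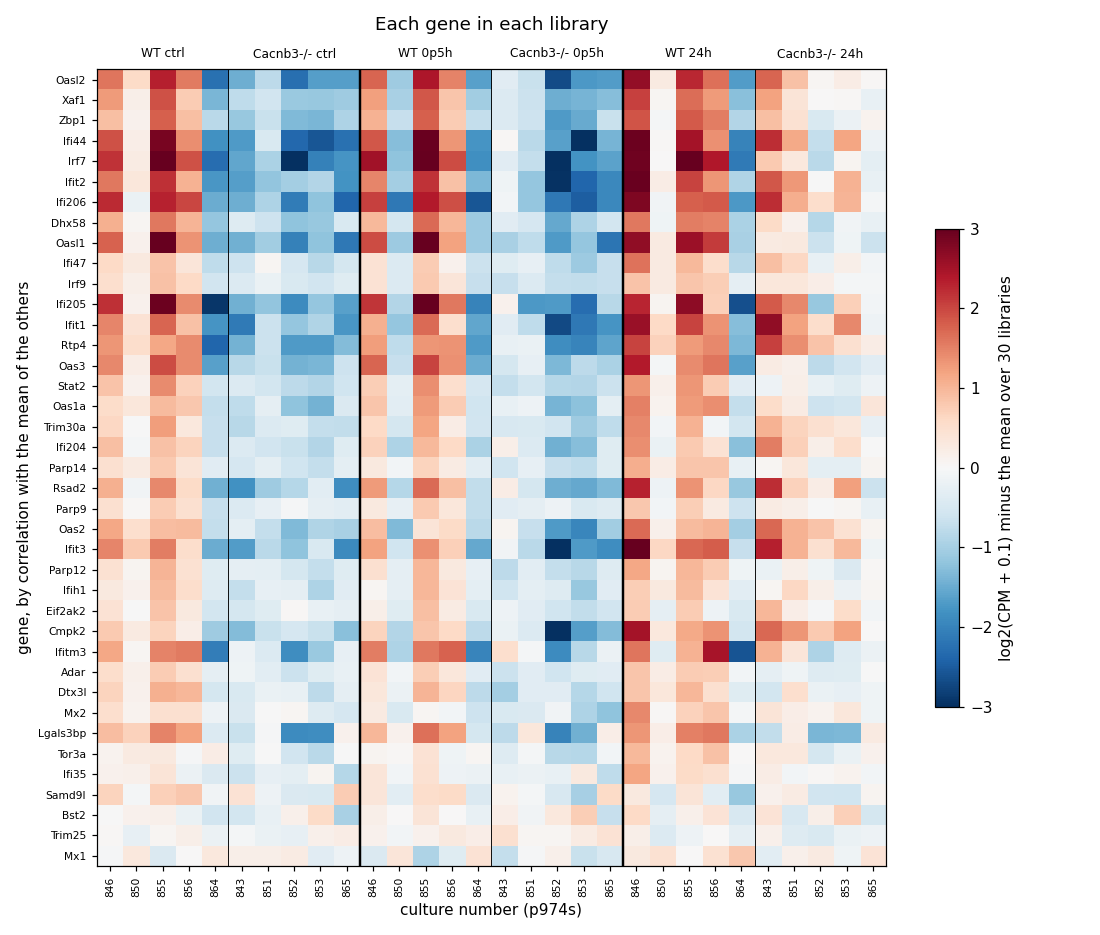
Each member (rows, ordered by correlation with the mean of the others) in each library (columns, grouped by set and genotype), coloured by log2(CPM + 0.1) minus the gene's mean over 30 libraries. In the upper rows WT cultures p974s846, p974s855 and p974s856 are red in all 3 sets, WT culture p974s864 is blue, and the Cacnb3-/- columns turn from blue in ctrl and 0p5h to pale or red at 24h. The bottom rows, Samd9l, Bst2, Trim25 and Mx1, do not show the pattern.

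The transcription factors of the pathway showed the pattern at very different sizes. Irf7 (chr7:141262706-141266481, GRCm38, minus strand), the factor that amplifies interferon production, had the widest range. It stood at 133, 34.6, 351, 110 and 5.94 CPM in WT and 9.94, 15.2, 3.49, 7.17 and 8.57 in Cacnb3-/- libraries named ctrl. In 0p5h it was 170, 12.6, 417, 115 and 8.20 in WT against 23.3, 17.9, 2.63, 8.44 and 9.63 in Cacnb3-/-. At 24h it was 223, 29.6, 232, 157 and 6.70 in WT against 51.1, 36.5, 16.8, 31.3 and 24 in Cacnb3-/-. WT culture p974s855 thus carried 351 CPM of Irf7 where WT culture p974s864 carried 5.94, and p974s864 stayed below 9 CPM in every set. The log2 fold change of Cacnb3-/- against WT was -3.81 ± 0.83 (SE) in ctrl, -3.50 ± 0.95 in 0p5h and -1.97 ± 0.72 at 24h, with edgeR adjusted p of 0.243, 0.251 and 0.0722. It was the lowest log2 fold change of all members in each set.

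Stat2 (chr10:128270576-128292849, plus strand), a subunit of ISGF3, was 165, 100, 246, 148 and 62.3 CPM in WT and 69.6, 63.1, 53.3, 49.8 and 61.1 in Cacnb3-/- libraries named ctrl. In 0p5h it was 153, 74.5, 242, 131 and 64.5 in WT against 56.1, 62.3, 50.8, 49.8 and 58.8 in Cacnb3-/-, so every WT library was above every Cacnb3-/- library. In the set 24h it was 230, 102, 229, 155 and 72 against 83.1, 104, 78.1, 71 and 82.1, and the groups overlapped. Its log2 fold change was -1.25 ± 0.29, -1.22 ± 0.30 and -0.87 ± 0.28 in the 3 sets (edgeR adjusted p = 0.243, 0.251 and 0.0574). Irf9 (chr14:55603571-55610030, plus strand), the DNA-binding subunit of ISGF3, covered a narrower range. It was 118, 93.5, 153, 126 and 55.8 CPM in WT and 62.4, 72.1, 60.1, 55.3 and 64.6 in Cacnb3-/- in ctrl. In 0p5h it was 111, 61.8, 142, 106 and 51.2 against 51.1, 62.3, 50, 49.3 and 51.3. It was, at 24h, 151, 100, 148, 139 and 69 against 104, 105, 94.9, 79.6 and 79.8, so each Cacnb3-/- culture carried more Irf9 at 24h than in either other set. WT culture p974s864 was within the Cacnb3-/- range of Irf9 in ctrl and 0p5h and below it at 24h.

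The IFIT proteins bind viral RNA that lacks the cap modifications of the host. Ifit1 (chr19:34640871-34650009, plus strand) was 24.1, 11.7, 29.2, 16 and 2.47 CPM in WT and 1.90, 5.52, 3.80, 4.61 and 2.50 in Cacnb3-/- in ctrl. In 0p5h it was 18.2, 3.82, 28.2, 12.4 and 2.90 against 6.84, 5.08, 1.24, 1.89 and 2.48. The values at 24h were 52.8, 13.2, 35.8, 22.3 and 3.52 against 55.4, 20.3, 12.5, 23.9 and 7.76, so that the Cacnb3-/- range covered most of the WT range. The log2 fold change between genotypes went from -2.17 ± 0.53 in ctrl and -1.86 ± 0.63 in 0p5h to -0.04 ± 0.63 at 24h. Rsad2 (viperin, chr12:26442753-26456452, minus strand), which makes a chain-terminating nucleotide, and its neighbour Cmpk2, a nucleotide kinase, showed the same course. Rsad2 was 59.2, 26.3, 76.6, 41.9 and 10.3 CPM in WT and 7.95, 13.3, 15.4, 22.7 and 7.63 in Cacnb3-/- in ctrl. It was 68.8, 15.6, 91.1, 52.7 and 16.8 against 32.7, 19.6, 10.1, 9.70 and 11.2 in 0p5h. At 24h it was 140, 25.1, 72.1, 43.1 and 12.7 against 130, 45.8, 32.8, 65.9 and 17.9, a log2 fold change of 0.06 ± 0.61, and -0.19 without WT culture p974s864.

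The OAS proteins sense double-stranded RNA and activate RNase L, and OASL1 is a relative without that activity. Oasl1 (chr5:114923240-114937915, plus strand), is known to hold back translation of Irf7. It was 40.3, 12.9, 94.2, 30.2 and 4.23 CPM in WT and 4.30, 5.66, 2.79, 5.06 and 2.59 in Cacnb3-/- in ctrl. In 0p5h it was 45.6, 5.47, 99.2, 27.5 and 5.48 against 5.91, 6.95, 3.58, 5.19 and 2.48, and at 24h 75.1, 14.3, 70, 50.5 and 5.99 against 14.3, 14.4, 7.45, 10.8 and 7.47. In all 3 sets WT cultures p974s846, p974s855 and p974s856 were above all Cacnb3-/- cultures, and WT culture p974s864 was among or below them. The log2 fold change was -3.13 ± 0.66, -2.88 ± 0.72 and -1.94 ± 0.56 (edgeR adjusted p = 0.243, 0.251 and 0.0516). Oas1a (chr5:120896256-120907521, minus strand) was 26.5, 22.6, 34.8, 31.5 and 10.9 CPM in WT and 10.5, 14.9, 7.67, 6.66 and 13.3 in Cacnb3-/- in ctrl. It was 31.9, 14.5, 43.9, 30.5 and 11.8 against 15.5, 16.2, 6.73, 7.55 and 14.7 in 0p5h. In the set 24h it was 51.2, 19.2, 43.6, 47.2 and 11 against 26.3, 21.2, 11.6, 12.2 and 23.

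Among the sensors, Ifih1 (MDA5, a sensor of long double-stranded RNA, chr2:62595798-62646255, minus strand) was 37.5, 33.5, 58.9, 44.3 and 23.5 CPM in WT and 18.5, 25.7, 25.4, 16.1 and 24.3 in Cacnb3-/- in ctrl. It was 31.7, 25.4, 61.5, 41 and 24.8 against 20.3, 25.1, 23.4, 13.9 and 24.3 in 0p5h. It was, at 24h, 51, 37.4, 58.8, 40.5 and 24.7 against 32, 47.4, 34.6, 27 and 32.1, and the genotypes overlapped, with a log2 fold change of -0.25 ± 0.22. Zbp1 (a Z-nucleic acid sensor, chr2:173206612-173218923, minus strand) had the lowest p of all members in ctrl. It was 35.8, 21, 66.8, 35.6 and 10.9 CPM in WT and 8.65, 12, 7.59, 7.30 and 10 in Cacnb3-/-, a log2 fold change of -1.87 ± 0.39 (edgeR adjusted p = 0.243). Only WT culture p974s864 lay within the Cacnb3-/- range of Zbp1 in ctrl. It was 39.3, 11.8, 65.8, 32.5 and 11.6 against 14.4, 12.3, 5.85, 6.66 and 11.9 in 0p5h, and 70.4, 18.4, 68.7, 55.5 and 10.4 against 35.7, 26.3, 13.8, 17 and 20.4 at 24h. Xaf1 (chr11:72301629-72313733, plus strand), a partner of the apoptosis inhibitor XIAP, was 36.7, 16.9, 56.6, 25.4 and 5.69 CPM in WT and 8.74, 10.1, 6.89, 6.79 and 7.07 in Cacnb3-/- in ctrl. It was 35.2, 7.52, 54.3, 26.8 and 7.21 against 11.3, 9.49, 5.34, 5.61 and 6.13 in 0p5h, and 62.1, 15.6, 47.8, 36.3 and 6.18 against 34.9, 19.5, 15, 15.3 and 12.8 at 24h. Xaf1 and Zbp1 show the same steps: high in p974s846, p974s855 and p974s856, low in p974s864, and higher in every Cacnb3-/- culture at 24h than in either other set.

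Proteins that restrict virus entry or release did not behave alike. Ifitm3 (chr7:141009586-141010770, minus strand), which blocks fusion of virus in endosomes, was 113, 52.3, 142, 149 and 12 CPM in WT and 45.3, 38.3, 13.9, 23.4 and 42.3 in Cacnb3-/- in ctrl. It was 147, 26.4, 152, 174 and 12.8 against 72.3, 48.4, 13.5, 28.6 and 44.6 in 0p5h. The values at 24h were 154, 39, 104, 279 and 8.37 against 104, 65.1, 26.4, 38.5 and 45.1, and WT culture p974s864 had the lowest value of the 10 cultures in each set. Bst2 (tetherin, chr8:71534264-71537437, minus strand), which holds budding virus at the membrane, showed no such order. It was 501, 548, 554, 440 and 334 CPM in WT and 342, 430, 554, 743 and 257 in Cacnb3-/- in ctrl. It was 570, 509, 656, 502 and 427 against 578, 463, 629, 842 and 309 in 0p5h, and 757, 413, 557, 665 and 357 against 667, 362, 565, 818 and 350 at 24h. Cacnb3-/- culture p974s853 had the highest Bst2 in every set.

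Mx1 (chr16:97447035-97462907, minus strand), a gene of the dynamin-like GTPase family, was high in every library and ran against the other members among WT cultures. It was 510, 646, 390, 525 and 649 CPM in WT and 591, 592, 618, 416 and 470 in Cacnb3-/- in ctrl. In 0p5h it was 387, 678, 277, 409 and 708 against 316, 509, 579, 327 and 375, and at 24h 643, 716, 523, 717 and 911 against 421, 578, 630, 481 and 693. WT culture p974s864, lowest for most members, had the highest Mx1 of the WT cultures in every set, and WT culture p974s855 the lowest. Its relative Mx2 did not share this: it was 14.1 to 22.4 CPM in WT and 11.1 to 16.5 in Cacnb3-/- libraries named ctrl. Adar, which edits adenosine in double-stranded RNA, had the lowest p of all members at 24h. It was 128, 99.8, 152, 124 and 73.7 CPM in WT and 81.4, 71.8, 56.9, 69.2 and 77.1 in Cacnb3-/- in ctrl, and 119, 83.8, 149, 113 and 70.7 against 57.1, 70.9, 58.6, 68.9 and 70.2 in 0p5h. At 24h it was 158, 104, 151, 149 and 84 against 74.2, 82, 67.9, 69.4 and 88.9, a log2 fold change of -0.71 ± 0.18 (edgeR adjusted p = 0.0515), and only WT culture p974s864 lay below a Cacnb3-/- value.

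**Figure D3:**
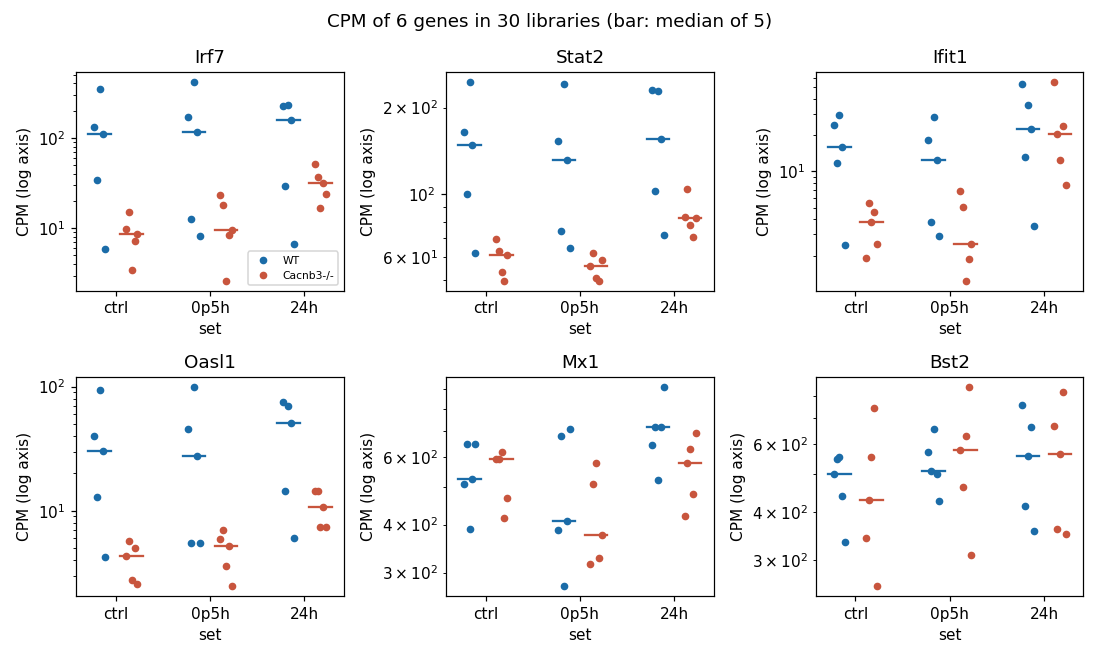
CPM (log axis) of Irf7, Stat2, Ifit1, Oasl1, Mx1 and Bst2 in all 30 libraries by set, with 1 point for each culture and a bar at the median of 5. For Irf7, Stat2, Ifit1 and Oasl1, WT cultures p974s846, p974s855 and p974s856 lie above all Cacnb3-/- points in ctrl and 0p5h. WT culture p974s864 lies among the Cacnb3-/- points in ctrl. In 0p5h WT cultures p974s850 and p974s864 lie among them for Irf7, Ifit1 and Oasl1, but not for Stat2. The Cacnb3-/- points of these genes are shifted up at 24h. Mx1 and Bst2 overlap between genotypes in every set.

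The comparison of genotypes was tested over all genes with edgeR's quasi-likelihood test, and a call needed 2-fold or more together with a Benjamini-Hochberg adjusted p below 0.05. No member was called in ctrl, 0p5h, 24h or in libraries summed by culture, and neither was any other gene (0% of 13022, 12806, 12706 and 14833 genes). At an unadjusted p under 0.05 stood 34 of 39 members in ctrl (16.6% of all genes), 29 in 0p5h (16.4%), 11 at 24h (38.4%) and 26 in the summed libraries (23.3%). The median log2 fold change of the members was -1.22 in ctrl, -1.09 in 0p5h, -0.48 at 24h and -0.82 when summed, against 0.03, 0.02, 0.01 and 0.02 for all genes tested. At 24h the share of members with a low p was thus under that of all genes, in contrast with the earlier sets. In ctrl, 36 of 39 members had a negative log2 fold change and 22 differed by 2-fold or more. In the summed libraries Oasl1, Adar and Stat2 had the lowest p (adjusted p = 0.127 each). The lowest p in ctrl belonged to Zbp1, Oasl1 and Oas2 (adjusted p = 0.243 each), in 0p5h to Stat2, Oasl1 and Parp12 (0.251 each), and at 24h to Adar, Oasl1 and Stat2 (0.0515, 0.0516 and 0.0574). Trim25, an E3 ligase that acts on RIG-I, had the highest log2 fold change in ctrl (0.04) and 0p5h (0.16), and Ifi204, a DNA sensor of the p200 family, at 24h (0.27). With the trend with GC content removed Ifi204 was at -0.26 and Bst2 was highest at 0.48.

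The tool decided the call. DESeq2, the tool the study's methods name, called 22 members in ctrl, all lower in Cacnb3-/- (0.412% of all genes were called lower), 5 in 0p5h (0.176%), 2 at 24h (0.833%) and 9 in the summed libraries (0.413%). The study, which names the same limits of fold change and adjusted p, reported that no gene differed between WT and Cacnb3-/- BMDCs at any time. Why its outcome differs from these calls was not tested. The 5 in 0p5h were Irf7, Oasl1, Stat2, Xaf1 and Zbp1, and the 2 at 24h were Oasl1 and Lgals3bp, a secreted glycoprotein. WT culture p974s864 decided the call as well. Without Cacnb3-/- culture p974s865 edgeR called 2 members at 24h, where 8.83% of all genes were called. Without WT culture p974s864 it called 24 members lower in ctrl (1.05% of all genes), 0 in 0p5h (0%), 8 at 24h (2.03%) and 17 in the summed libraries (1.13%). The groups did not overlap for 0 members in ctrl (1.74% of 13724 genes did not overlap), 2 in 0p5h, Stat2 and Parp12 (2.08%) and 0 at 24h (5.91%).

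**Figure D4:**
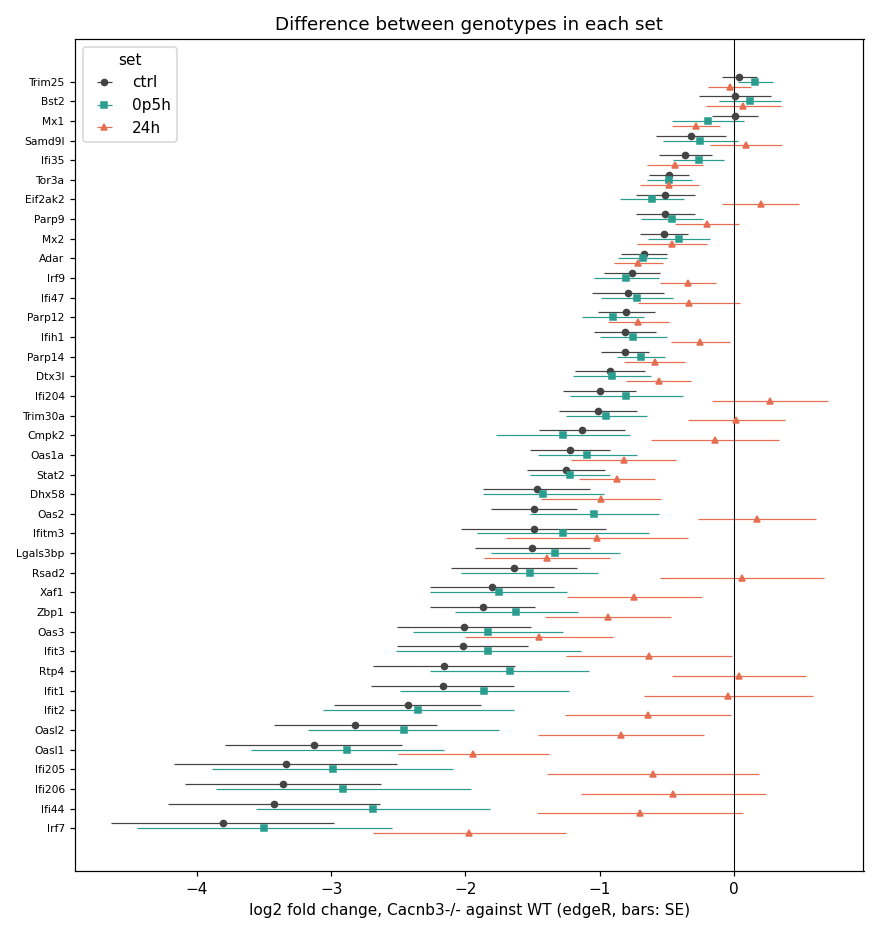
Log2 fold change of Cacnb3-/- against WT (horizontal axis, edgeR, bars show SE) for each member (vertical axis, ordered by ctrl) in ctrl (circles), 0p5h (squares) and 24h (triangles). Irf7 lies at -3.81 in ctrl and -1.97 at 24h, and for most members the triangles sit closer to 0 than the circles.

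The range over WT cultures, 3.80 to 6.09 in ctrl, was wider than the difference between the genotype means. In ctrl, WT cultures p974s846, p974s850, p974s855 and p974s856 each stood above all 5 Cacnb3-/- cultures for 34 or 35 of the 39 members, and p974s864 for 2. In 0p5h the counts were 35, 8, 35 and 34 for p974s846, p974s850, p974s855 and p974s856 and 4 for p974s864, and at 24h 32, 2, 26 and 19, and 1 for p974s864. WT culture p974s864 was below all 5 Cacnb3-/- cultures for 7 members in ctrl, 4 in 0p5h and 27 at 24h. The matching share of all genes was not computed for single cultures, so these counts describe the members only. Between the highest and lowest WT culture, 16 members differed over 4-fold in ctrl (8.48% of all genes). Among Cacnb3-/- cultures 3 did so, and the share of all genes was not computed there. The range was wider in WT than in Cacnb3-/- cultures for 33 of 39 members in ctrl (37.7% of all genes), 30 in 0p5h (37.5%) and 37 at 24h (43.4%).

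Some other measures of the libraries moved in part with this order among WT cultures. The mitochondrial share in ctrl was 1.53%, 3.50%, 1.26%, 1.07% and 4.49% in WT cultures p974s846, p974s850, p974s855, p974s856 and p974s864, highest where the members were lowest, and 4.83%, 5.23%, 8.98%, 10.4% and 2.61% in Cacnb3-/- cultures. The summed CPM of mature migratory DC markers in ctrl was 18000, 20200, 24400, 19200 and 12900 in WT against 10500, 14600, 13200, 14000 and 10100 in Cacnb3-/- cultures, lowest in p974s864 among WT. Summed granulocyte markers in ctrl were at 129, 516, 243, 222 and 501 CPM in WT, highest in p974s850 and p974s864, and at 206, 418, 391, 431 and 264 CPM in Cacnb3-/- cultures. Summed lymphocyte markers did not exceed 3.62 CPM in any library. Their part in the result was not tested. The column names of the count table hold a lane. In 0p5h, lane L001 held WT cultures p974s850 and p974s864 (mean log2 CPM 4.2 and 3.91) and Cacnb3-/- culture p974s851 (4.34), without a higher WT value. Lane L002 held WT p974s846 and p974s856 (5.67 and 5.48) and Cacnb3-/- p974s852 and p974s865 (3.45 and 3.95), and lane L003 held WT p974s855 (6.10) and Cacnb3-/- p974s843 and p974s853 (4.49 and 3.60). In ctrl, lane L001 held WT p974s846, p974s850 and p974s864 (5.71, 4.97 and 3.80) and Cacnb3-/- p974s851 (4.31). At 24h, Cacnb3-/- p974s851 (5.28) was above WT p974s850 and p974s864 (4.87 and 3.92) in lane L001. The WT values were higher in the other lanes at 24h. Lane L002 held WT p974s846 and p974s856 (6.42 and 5.78) and Cacnb3-/- p974s865 (4.70). Lane L003 held WT p974s855 (6.03) and Cacnb3-/- p974s843, p974s852 and p974s853 (5.62, 4.64 and 4.95).

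Between sets, the mean of the members was higher at 24h in all 5 Cacnb3-/- cultures, and in some of the WT cultures. All libraries of the set 24h have the treatment field 24h_ATP, with no vehicle library harvested then. The ATP pulse and the longer time in culture therefore cannot be told apart at 24h. From 0p5h to 24h the mean log2 CPM went up by 1.14, 0.94, 1.20, 1.35 and 0.75 in the 5 Cacnb3-/- cultures, a mean of 1.08 ± 0.23 (SD, n = 5), which is 1.68- to 2.56-fold. In WT cultures p974s846, p974s850, p974s855, p974s856 and p974s864 it changed by 0.75, 0.67, -0.07, 0.30 and 0.01 (0.33 ± 0.37). From ctrl to 24h the differences were 1.64, 0.98, 0.82, 1.04 and 0.74 in Cacnb3-/- (1.04 ± 0.35) and 0.70, -0.10, -0.06, 0.22 and 0.12 in WT cultures (0.18 ± 0.32). From 0p5h to 24h WT cultures p974s846 and p974s850 came close to the smallest Cacnb3-/- value, that of p974s865. The comparisons share the 24h libraries. From ctrl to 0p5h the mean changed by -0.03 ± 0.35 in Cacnb3-/- and -0.16 ± 0.35 in WT cultures, with no common direction.

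Most members took part in the Cacnb3-/- cultures. From 0p5h to 24h, 34 of 39 members were higher in all 5 Cacnb3-/- cultures (16.3% of all genes were), and 10 of 39 in all 5 WT cultures (12.6%). From ctrl to 24h the counts were 30 of 38 tested in Cacnb3-/- (12.8%) and 4 of 39 in WT (8.96%). With edgeR, 2 members were called from 0p5h to 24h in Cacnb3-/- (0.66% of 12730 genes). They were Ifit1, with a log2 fold change of 2.81 ± 0.58 (adjusted p = 0.0469), and Trim30a, a TRIM protein that dampens NF-kB signalling, with 1.21 ± 0.23 (adjusted p = 0.030). Irf9 had the lowest p (log2 fold change 0.85 ± 0.13, adjusted p = 0.0102), below 2-fold, as did Stat2 (0.62 ± 0.12, adjusted p = 0.0366). At an unadjusted p under 0.05 stood 34 members (17.5% of all genes), and the median log2 fold change was 0.85 against 0.00 for all genes. Trim25 had the lowest value, -0.43 ± 0.16.

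The numbers pair the libraries of these sets, and with the culture as a replicate block edgeR called 17 members, all higher at 24h (1.31% of all genes were called higher). They were Irf7, Ifit1, Ifit2, Ifit3, Oas2, Oasl1, Oasl2, Rsad2, Cmpk2, Zbp1, Xaf1, Rtp4, Trim30a, Ifi44, Ifi204, Ifi205 and Ifi206. With the block Rtp4, a chaperone of receptors that also has antiviral activity, rose by 2.18 ± 0.17 (log2, edgeR adjusted p = 1.77e-05), while Oasl2 rose by 2.01 ± 0.15 (adjusted p = 1.44e-05). Ifit1 rose by 2.71 ± 0.26 and Irf7 by 1.55 ± 0.19. In WT cultures no member was called by edgeR without the block (0.639% of all genes were called) and 1 with it, Ifit3, with a log2 fold change of 1.13 ± 0.21 and an adjusted p of 0.00891 (0.413% called higher). Without the block 2 WT members, Mx2 and Tor3a, stood at an unadjusted p under 0.05, Mx1 came next, and the log2 fold changes ran from -0.34 (Samd9l) to 1.26 (Ifit3). DESeq2 called 16 members higher in Cacnb3-/- (0.337%) and 0 in WT cultures (0.565% of all genes were called in either direction). Without Cacnb3-/- culture p974s851, p974s852 or p974s853 the edgeR count in Cacnb3-/- cultures was 0 (0.16%, 0.482% and 0.235% of all genes), without p974s865 it was 1 (0.465%) and without p974s843 it was 5 (0.515%). The Cacnb3-/- libraries at 24h also stood apart in other ways: their mitochondrial share was 16.5%, 6.00%, 10.5%, 13.6% and 3.21%, and their mean GC content, weighted by reads, 46.78% to 49.58%, against 48.16% to 49.70% in 0p5h. With the trend with GC content removed and the block, 16 members were called (2.21% of all genes), and their part in the result was otherwise not tested. Cacnb3-/- culture p974s865, with a mitochondrial share of 3.21%, had the smallest rise from 0p5h to 24h and 37 of 39 members higher.

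**Figure D5:**
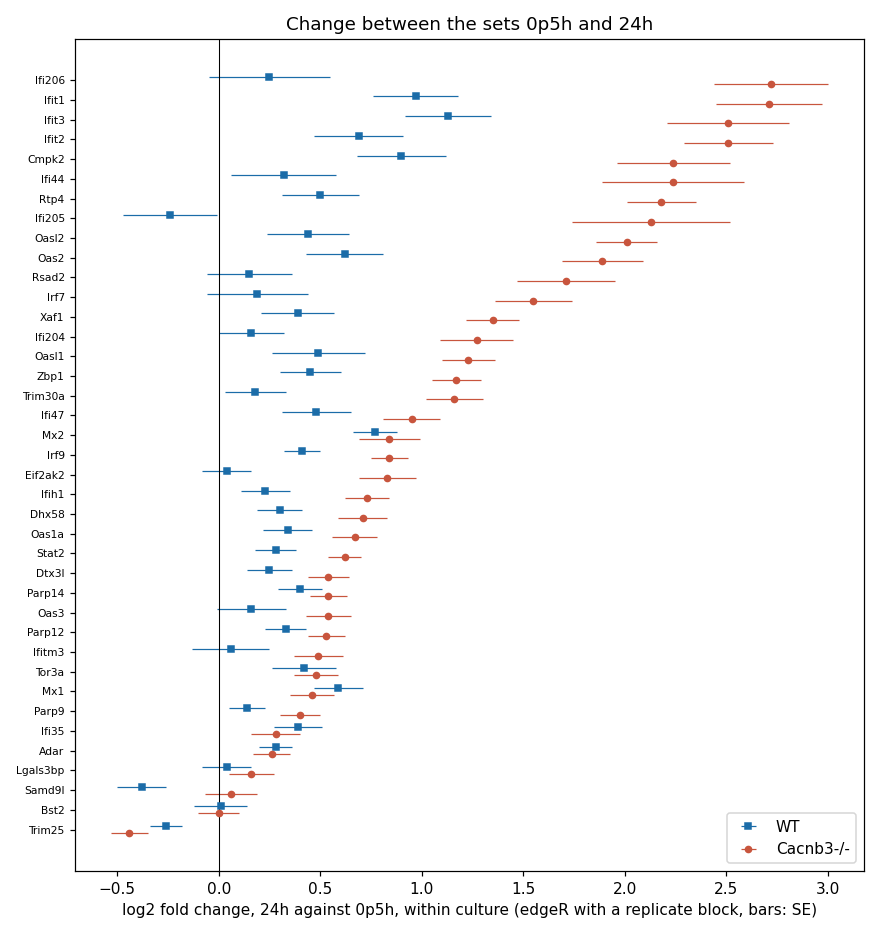
Log2 fold change from 0p5h to 24h within cultures (horizontal axis, edgeR with a replicate block, bars show SE) for each member (vertical axis, ordered by the Cacnb3-/- value), Cacnb3-/- as circles and WT as squares. The Cacnb3-/- values reach 2.72 for Ifi206 and 2.71 for Ifit1, whose WT value is 0.97, and Samd9l, Bst2 and Trim25 lie at 0.06, 0.00 and -0.44 in Cacnb3-/- cultures.

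From ctrl to 24h, edgeR called no member and no gene in Cacnb3-/- cultures (0%), with 29 of 38 members at an unadjusted p under 0.05 (10.8% of all genes) and a median log2 fold change of 0.79. Rtp4 (log2 fold change 2.53 ± 0.37), Cmpk2 (2.02 ± 0.32) and Oasl2 (2.28 ± 0.38) had the lowest p, with an adjusted p of 0.139 each, Ifi206 had the highest log2 fold change (2.96 ± 0.51) and Samd9l the lowest (-0.19 ± 0.25). DESeq2 called 17 members, all higher at 24h (0.171% of all genes were called higher), of 43 genes called higher in all. With the replicate block edgeR called 16 higher (0.683%), although the libraries of p974s843 did not deviate together between ctrl and 24h. In WT cultures edgeR called 0 members (0.0152% of all genes, and 0.926% with the replicate block, again 0 members), with 1 at an unadjusted p under 0.05, Ifi35. DESeq2 also called 0 members in WT (0.117% of all genes). Cmpk2 had the highest log2 fold change (1.02 ± 0.50) and Samd9l the lowest (-0.60 ± 0.28). From ctrl to 0p5h edgeR called 0 members in WT (0.176% of all genes) and 0 in Cacnb3-/- cultures (0.29%). The counts were also 0 with the replicate block (0.581% and 0.643% of all genes) and by DESeq2 (0.202% and 0.215%). With edgeR 1 member of each stood at an unadjusted p under 0.05, Mx2 in WT and Irf9 in Cacnb3-/-. The log2 fold changes ran from -0.51 (Oas2) to 0.20 (Rsad2, with Irf7 at the same rounded value) in WT and from -0.36 (Mx1) to 0.69 (Ifi44) in Cacnb3-/- cultures, and Trim25 was among the 3 lowest p in both.

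The difference between genotypes in the change was tested directly. No member and no gene was called by edgeR for ctrl to 0p5h, ctrl to 24h or 0p5h to 24h (0% of 13465, 13536 and 13424 genes), nor by DESeq2, and 0, 8 and 0 members stood at an unadjusted p under 0.05. For ctrl to 24h, where 4.86% of all genes had such a p, the median of the members was 0.57 on the log2 scale, the change in Cacnb3-/- minus that in WT. Oas2 (1.66 ± 0.58), Rtp4 (2.20 ± 0.78) and Ifi206 (2.92 ± 1.08) had the lowest p, with an edgeR adjusted p of 0.753 each. For ctrl to 0p5h the members ran from -0.20 (Mx1) to 0.73 (Ifi44), and for 0p5h to 24h from -0.19 (Trim25) to 2.48 (Ifi206), with the lowest p for Eif2ak2, Rtp4 and Ifi206. With the culture as a replicate block edgeR called 7 members for ctrl to 24h, all with a larger change in Cacnb3-/- cultures (0.118% of all genes were called), with the same limit on p974s843.

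The rest of the pathway was looked at through lists chosen for their place in it. Ligands were near absent: over all 30 libraries Ifnb1 had 43 reads, Ifnk 18, Ifng 7 and Ifna2 2, and Ifna1, Ifna4, Ifna5, Ifnab, Ifne, Ifnl2 and Ifnl3 had 0. Ifnb1 reached its highest value, 0.512 CPM, in a WT library at 24h. None of the 11 ligands passed the filter on low counts. None of the 11 genes of the receptor and kinase list, the 16 inducers and the 6 negative regulators was called by edgeR between genotypes or between sets. Rigi, the sensor RIG-I, followed the members most closely among the inducers: 10.9 to 41 CPM in WT and 6.28 to 13.1 in Cacnb3-/- in ctrl, and 8.65 to 47.1 against 12.8 to 36.4 at 24h. The receptor gene Ifnar1 lay at 112 to 166 CPM in WT and 68.3 to 161 in Cacnb3-/- in ctrl. Usp18, which ends interferon signalling at the receptor, was 32.5 to 70.7 CPM against 25.4 to 44.5 in ctrl and 63.1 to 138 against 51.5 to 74.4 at 24h. Of 8 NF-kB targets, chosen as genes of cell activation outside the interferon pathway, 0 were called between genotypes in any set. At an unadjusted p under 0.05 in ctrl stood 5 receptors and kinases (2 higher and 3 lower in Cacnb3-/-), 5 inducers, 3 negative regulators and 5 NF-kB targets, the last 3 lists all lower. From ctrl to 0p5h edgeR called 1 NF-kB target in WT and 2 in Cacnb3-/- cultures, all higher in 0p5h, where it called no member.

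Of 13514 other genes, those most like the mean of the members over the 30 libraries were Slfn1 (r = 0.979), Isg15 (0.975), Ifi211 (0.970), Rigi (0.969), Irgm1 (0.960) and Oas1g (0.949), while the median over all of them was 0.00. Isg15, the ubiquitin-like modifier, was 4.98 to 94.5 CPM in WT and 4.91 to 12.3 in Cacnb3-/- in ctrl, and 6.75 to 113 against 14.4 to 42.1 at 24h. Slfn1 was 2.06 to 32.5 CPM against 1.86 to 3.33 in ctrl, and 1.95 to 30.1 against 5.25 to 13.7 at 24h.

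Some members are less certain as single genes. Parp9 and Dtx3l, which form a complex and overlap head to head on chromosome 16, were counted without strand, and the paralogs Ifi204, Ifi205 and Ifi206, or Oas1a beside Oas1g, may share reads. Ifi205, Ifi206 and Ifi44 rested on few reads, at under 1 CPM in several Cacnb3-/- libraries. How far their fold changes depend on the prior count was not tested. Ifit1, Ifit2, Ifit3 and Cmpk2 also had few reads in some libraries, such as 17, 13, 1 and 10 in Cacnb3-/- culture p974s852, set 0p5h.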

How the data were processed

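The authors aligned the reads with STAR 2.4 and counted them over exons of Ensembl genes with featureCounts 1.5.1. The count table they deposited holds whole-number counts of reads per gene, not normalized. Its header names GRCm38 and Ensembl release 79, and the labels name mm10, the same build. Counting was not set to use strand although the methods name a stranded library kit, so overlapping genes can lose or share reads. Gene length, also deposited, served for RPKM. DESeq2 was the authors' tool for differential expression. Symbols came from GENCODE by Ensembl ID (89.4% of rows matched), and promoter sequences from RefSeq (GRCm38.p6).

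From the counts, levels were TMM-scaled CPM, and mean log2 CPM used a prior count of 2 over all 30 libraries. Tests were edgeR 4.0.16 quasi-likelihood fits on genes kept by filterByExpr, over all genes, with Benjamini-Hochberg adjustment. DESeq2 1.42.0, its size factors, no filter, no fold minimum, 1 fit to all libraries, removal of a trend with GC content, the replicate block and leaving out each culture were alternatives. Lane as a covariate and the block with the GC trend removed were added after seeing the data. The scripts were first tested on simulated data. The numbers were checked for pairing: deviations from group means of same-numbered libraries correlated above 0.1 in 29 of 30 pairs (median 0.613), the exception being Cacnb3-/- culture p974s843, ctrl with 24h (0.0745), in 13724 genes. The numbers thus paired the libraries in every comparison of sets but ctrl with 24h in Cacnb3-/- cultures. The main fits have no block, and the blocked fit is given beside them.

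The members and lists were chosen with earlier results of these data known. Values in every library are given for 13 members picked by role, Irf7, Irf9, Stat2, Ifit1, Rsad2, Mx1, Oas1a, Oasl1, Ifih1, Zbp1, Xaf1, Ifitm3 and Bst2, and the 3 with the lowest p between genotypes at 24h. In each comparison the 3 lowest p and the highest and lowest log2 fold change are named. Some items are not reported here.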

Additional observations from a re-analysis of the deposited data

Results flagged for a closer look

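Groups of 5 were looked at for a library far from the others, over the mean of the members and 14 members whose values are given in every library, 90 groups in all. In 1 group a value stood apart: Irf9 in Cacnb3-/- culture p974s851, set 0p5h, at 62.3 CPM, where the other 4 cultures were at 49.3 to 51.3 CPM. Chance alone flags about 1 in 20 groups. No member and not their mean moved one way in every WT culture and the other way in every Cacnb3-/- culture between a pair of sets.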

How the results depend on the processing

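The mean log2 CPM of the members moved by less than 1 SD under all 105 alternatives run on it. That SD is the spread between cultures, and it exceeded some of the differences themselves. Cacnb3-/- minus WT at 24h was -0.37 with an SD of 0.77. In WT, 24h minus ctrl was 0.18 with an SD of 0.32, and 0p5h minus ctrl -0.16 with 0.35. A shift under 1 SD can therefore still remove such a difference. Of the log2 fold changes given for single members, 1083 kept their direction and side of the threshold, 60 newly passed it, 12 no longer did and 19 turned, none of them called. Between genotypes at 24h, Ifi204 went from 0.27 to -0.26 and Rsad2 from 0.06 to -0.24 with the GC trend removed, and Rsad2 to -0.01 with lane. In ctrl Trim25 went from 0.04 to -0.06 with lane, and Rsad2 for 0p5h against ctrl in WT from 0.20 to -0.27. Leaving out 1 culture gave -0.02 to 0.09 for Trim25 in ctrl, 0.00 to 0.10 for Trim25 summed, and at 24h -0.06 to 0.62 for Ifi204, -0.48 to 0.67 for Rsad2 and -0.62 to 0.40 for Ifit1. Of the counts of members called, 176 stayed within 1.5 times and 31 did not; the cause was not tested. Between genotypes edgeR called 0 members in each set and in summed libraries. DESeq2 called 22 in ctrl (0.584% of all genes, called in either direction as in the shares below), 5 in 0p5h (0.322%), 2 at 24h (2.47%) and 9 summed (0.904%). At 24h, no filter gave 3 (1.46% of all genes called) and a single fit to all 30 libraries 2 (4.47%). Leaving out 1 culture gave 0 to 24 in ctrl, 0 to 8 at 24h and 0 to 17 summed. The highest came each time without WT culture p974s864, where 1.88%, 5.74% and 2.54% of all genes were called. For 24h against 0p5h in Cacnb3-/- cultures the count was 2 (0.66% of all genes). It was 16 with DESeq2 (0.797%), 10 without a filter (0.484%), 4 without a fold minimum (0.88%) and 1 with the GC trend removed (0.526%). With lane as a covariate it was 1 (0.566%), with the replicate block 17 (2.88%), and with the block and the GC trend removed 16 (2.21%). It was 0 to 5 leaving out 1 culture (0.16% to 0.515%). In WT the count was 0 (0.639%), 1 with the replicate block (1.78%) and 2 with the block and the GC trend removed (1.82%). For 24h against ctrl in Cacnb3-/- cultures the count was 0 (0%), with 17 by DESeq2 (0.195%) and 17 without a filter (0.103%). It was 16 with the replicate block (1.11%) and 14 with the block and the GC trend removed (0.755%). It was 0 to 1 leaving out 1 culture (1 without p974s865, 0.0245%). The genotype difference in that change gave 0 (0%), and 7 with the replicate block (Ifi205, Ifi206, Ifi44, Irf7, Oas2, Oasl2 and Rtp4). It gave 6 with the GC trend removed as well, and 0.118% of all genes were called in both blocked fits. Culture p974s843 did not pair between these sets. Lane and the block with the GC trend removed were added after seeing the data. Members under 1 CPM, such as Ifi205, rest on few reads.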
